A study of Mus musculus with 18 samples.

Results

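The integrated stress response and endoplasmic reticulum (ER) stress genes were a set of 33 genes, taken by symbol from a count table of 55291 genes. All 33 symbols were present. By role they were 4 eIF2α kinases, 4 transcription factors, 2 regulatory subunits of the eIF2α phosphatase, 7 targets of ATF4, 3 genes of the ER sensor arms, 9 ER chaperones and folding enzymes, and 4 genes of ER-associated degradation (ERAD).

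RNA of mouse oocytes was sequenced after deletion of Vps34, also called Pik3c3, the class III phosphatidylinositol 3-kinase of autophagosomes and endosomes. ZcKO females were Vps34 floxed/floxed and Zp3-Cre positive, and control females were Vps34 floxed/floxed without Cre, so the floxed gene was common to all groups. The Zp3 promoter drives Cre in growing oocytes, and the surrounding somatic cells keep an intact gene. All females were 5 weeks old, each library pooled 5 oocytes, and there were 3 libraries for each of 4 groups. MII oocytes, arrested at the second metaphase, were taken 14 h after hCG, which triggers ovulation. GV oocytes, fully grown with an intact germinal vesicle, were taken 46 h after PMSG, which stimulates follicle growth. The 2-cell embryos of the series are not analysed here.

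In the integrated stress response, kinases that sense amino acid shortage, haem or mitochondrial stress, double-stranded RNA or ER stress phosphorylate the initiation factor eIF2α. Most translation then slows, while ATF4 is translated and switches on genes of amino acid supply and redox balance, and DDIT3 (CHOP) with further stress. The ER has its own sensors, PERK, IRE1 and ATF6, which raise chaperones and ERAD, and PERK joins the 2 systems because it is one of the eIF2α kinases. Much of this control acts on protein phosphorylation, translation and splicing, which gene counts do not measure.

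Genes of ER chaperones often carry the ERSE, a promoter element bound by ATF6, which was searched as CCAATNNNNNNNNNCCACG on both strands of the 300 bases around each start (250 before and 50 after; RefSeq, GRCm38.p6). A promoter was found for 31 of the 33 genes. The element was present in 7 of those 31 and in 0.119% of 32851 promoters. They are shown because members with the same element stood apart from each other at MII. Each line is a 30-base window on the strand of the gene, with the element in capitals (reversed in Calr and in the second Hsp90b1 window).
Hspa5 chr2:34772020-34772049 (+): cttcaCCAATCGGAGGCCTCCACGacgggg
Calr chr8:84847069-84847098 (-): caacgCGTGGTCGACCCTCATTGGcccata
Hsp90b1 chr10:86705632-86705661 (-): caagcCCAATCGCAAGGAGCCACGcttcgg
Hsp90b1 chr10:86705527-86705556 (-): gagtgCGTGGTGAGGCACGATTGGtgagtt
Canx chr11:50325794-50325823 (-): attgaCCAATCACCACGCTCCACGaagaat
Pdia6 chr12:17266486-17266515 (+): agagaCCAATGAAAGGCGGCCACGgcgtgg
Dnajc3 chr14:118937822-118937851 (+): cacaaCCAATCAGCGCCAACCACGacccgg
Syvn1 chr19:6046527-6046556 (+): cgcaaCCAATCGGCGGTAGCCACGggaaca

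The element that ATF4 binds, the CARE, was searched as TGATGCAA on both strands and was present in 4 of the 31 promoters, those of Atf3, Chac1, Herpud1 and Slc7a11, and in 0.895% of all promoters. It is shown for Chac1 and Slc7a11, ATF4 targets with a lower (Chac1) and a higher (Slc7a11) share of counts at MII, Slc7a11 being lower too when scaled to spike-ins.
Chac1 chr2:119351038-119351067 (+): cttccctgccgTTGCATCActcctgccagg
Slc7a11 chr3:50443661-50443690 (-): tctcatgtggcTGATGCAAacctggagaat
Slc7a11 chr3:50443642-50443671 (-): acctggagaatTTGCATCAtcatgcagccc

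Another 3 letter strings were searched on both strands. TGACGTGG, a site of the ER stress factors XBP1 and ATF6, was in 0 of the 31 promoters and in 0.676% of all. Its inner part ACGTGG, which overlaps it, was in 4 (Dnajb9, Dnajc3, Herpud1 and Pdia6) and in 8.31% of all, and TGATGNAAT, another writing of the ATF4 site, was in 0 and in 0.965% of all. The strings were chosen after the stage results were known, and a match describes letters only.

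The libraries held 2609783 to 4696626 gene counts. Counts of Pik3c3 were 14, 8 and 9 in ZcKO MII libraries against 39, 71 and 63 in control MII libraries, and 5, 6 and 8 in ZcKO GV libraries against 105, 109 and 121 in control GV libraries. The columns of the table carry the letters T and C, read here as ZcKO and control, and every genotype direction rests on that reading. Of 12 oocyte markers, 11 had at least 10 counts in all 12 libraries. Transcripts of cumulus cells, the somatic cells around the oocyte, were also present, and their 20 markers summed to 921 to 1670 CPM, counts per 1e+06 gene counts, in ZcKO MII libraries, 1212 to 1535 in control MII, 351 to 602 in ZcKO GV and 427 to 525 in control GV, most of it from Serpine2. Without Serpine2 they summed to 570, 190 and 123 CPM in ZcKO MII libraries against 181, 298 and 210 CPM in control MII libraries, so ZcKO MII replicate 1 stood apart. Cyp11a1, a steroidogenic enzyme among these markers, had 69, 17 and 23 counts in ZcKO MII libraries against 3, 0 and 5 in control MII libraries. Tnfaip6 and Ptx3, which cumulus cells make around ovulation, had 0 counts in all GV libraries and were present in all MII libraries. Of the 20 cumulus markers, 5 had at least 10 counts in all 12 libraries and 4 stayed under 10 in every library. Of 10 blood and immune markers, 8 stayed under 10 in every library. C1qb had 152 to 220 counts in ZcKO GV and 197 to 298 in control GV. Cd52 had 15 to 53 in ZcKO MII and 1 to 43 in control MII. By the labels each library held 5 oocytes, while the number of somatic cells attached to them is not given. For somatic transcripts, fewer cells and less RNA per cell cannot be told apart.

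The members spanned a wide range of levels, compared here in CPM per kb of exon. In ZcKO MII oocytes the highest group means were 162 for Dnajc3, 100.2 for Canx, 80.9 for Pdia6 and 77.5 for Ern1. In ZcKO GV oocytes the highest were 145 for Calr, 88.4 for Pdia6, 86.3 for Dnajc3 and 76.1 for Hspa5. These are products of the ER lumen or membrane that fold glycoproteins or help to do so, apart from Ern1, which encodes the sensor IRE1. At the low end, Atf5, Trib3 and Herpud1 had under 10 counts in every library, and 8 members had 20 or fewer counts in every library. The plot of levels per exon length places all 33 genes.

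**Figure D1:**
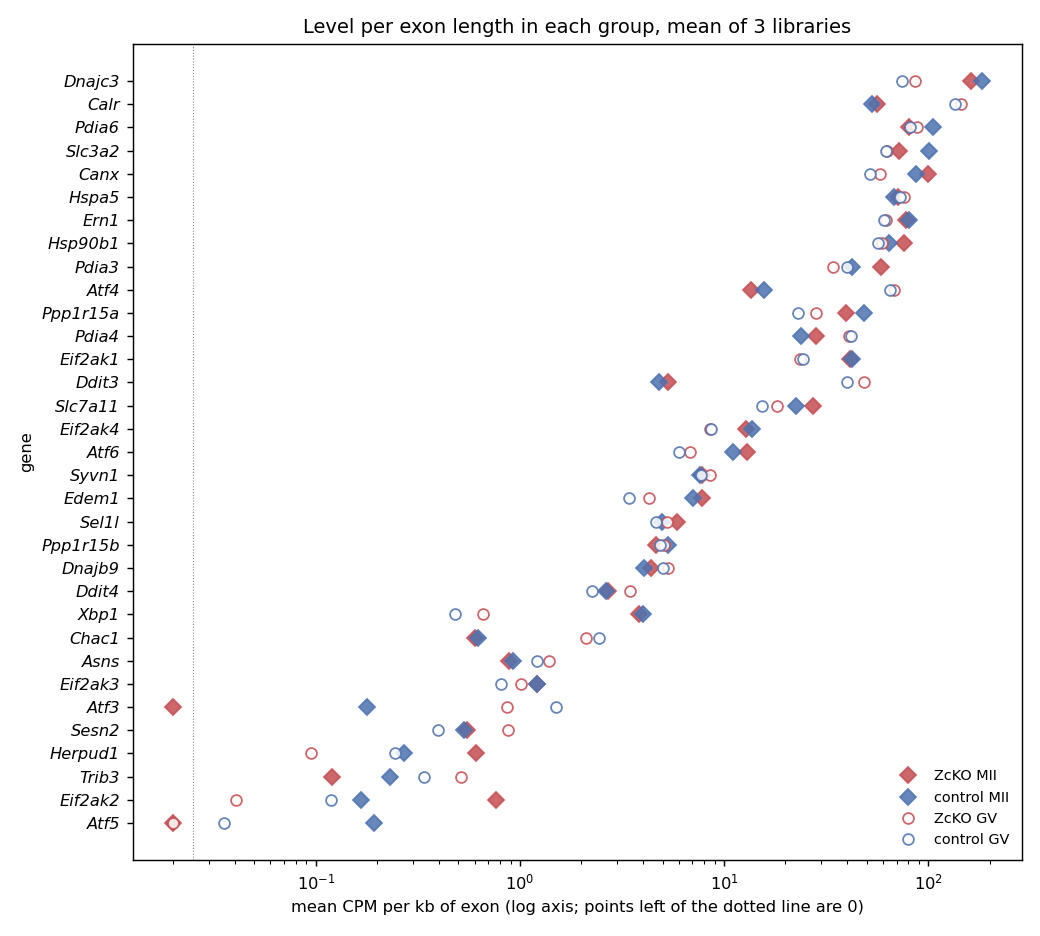
Mean level of each of the 33 genes in the 4 groups, in CPM per kb of exon on a log axis, with 3 libraries per group; points left of the dotted line are 0. Chaperones such as Dnajc3 and Calr lie at the top, and Atf5, Eif2ak2, Trib3 and Herpud1 at the bottom; Atf4 and Ddit3 have lower filled (MII) than open (GV) symbols.

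The summed level of all 33 genes was 4709 ± 237 CPM in ZcKO MII oocytes, 4796 ± 148 CPM in control MII, 3985 ± 182 CPM in ZcKO GV and 3724 ± 69.9 CPM in control GV (SD, n = 3 each). The 9 chaperones and folding enzymes made up 2635 ± 265 CPM of this in ZcKO MII, 2650 ± 208 CPM in control MII, 2245 ± 121 CPM in ZcKO GV and 2097 ± 51.2 CPM in control GV.

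The comparison of ZcKO with control asked whether loss of VPS34 moved these genes at either stage. None passed the test. At MII, 0 of 25 tested members were called by edgeR's quasi-likelihood test at an adjusted p under 0.05, where 0 of 9677 genes (0% called) were called, and 2 had an unadjusted p under 0.05, against 9.01% of all genes. The deleted gene Pik3c3, lower in every ZcKO MII library than in every control MII library, was thus not called at MII either. An absence of calls at MII therefore does not show that a gene was unmoved. At GV, 0 of 26 tested members were called, where 9 of 10911 genes (0.0825%) were called, and 0 had an unadjusted p under 0.05, against 2.2% of all genes. DESeq2 also called 0 members at each stage. The low-count filter removed the other 8 members at MII and 7 at GV.

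The size of the differences was small for most members. At MII the median log2 fold change over the 25 tested members was 0.02, against 0.02 over all genes, and 13 were positive, against 51.9% of all genes. At GV the median over the 26 was 0.05, against 0.01 over all genes, and 19 were positive, against 52% of all genes. These values are relative to the other genes of a library. With the totals of the ERCC spike-ins, RNAs added in known amounts, as library sizes, the whole distribution shifted. At MII the member median became -0.16 and the median of all genes -0.15, with 19 of 25 members and 67% of all genes negative. At GV the member median became 0.56 and the median of all genes 0.46, with 0 of 26 members and 6.95% of all genes negative. On that scale too, 0 members were called at MII, where 0% of genes were, and 0 at GV, where 0.101% were. The ratio of gene to spike-in counts overlapped between genotypes at both stages, from 6.29 to 13.1 in ZcKO GV against 4.35 to 8.69 in control GV libraries.

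On the scale relative to other genes, the 95% interval lay within 2-fold in either direction for 23 of 25 members at MII and for 22 of 26 at GV. The wider intervals were those of Xbp1 and Pdia3 at MII and of Eif2ak3, Asns, Chac1 and Ddit4 at GV. Of these, Pdia3 was not a low-count gene, with 284 to 619 counts in the MII libraries. Ddit4 had 38, 17 and 5 counts in ZcKO GV libraries against 15, 12 and 17 in control GV libraries, a log2 difference of 0.61 ± 0.57 (SE). Without ZcKO GV replicate 1 that value was -0.33, and without ZcKO GV replicate 3 it was 1.06.

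**Figure D2:**
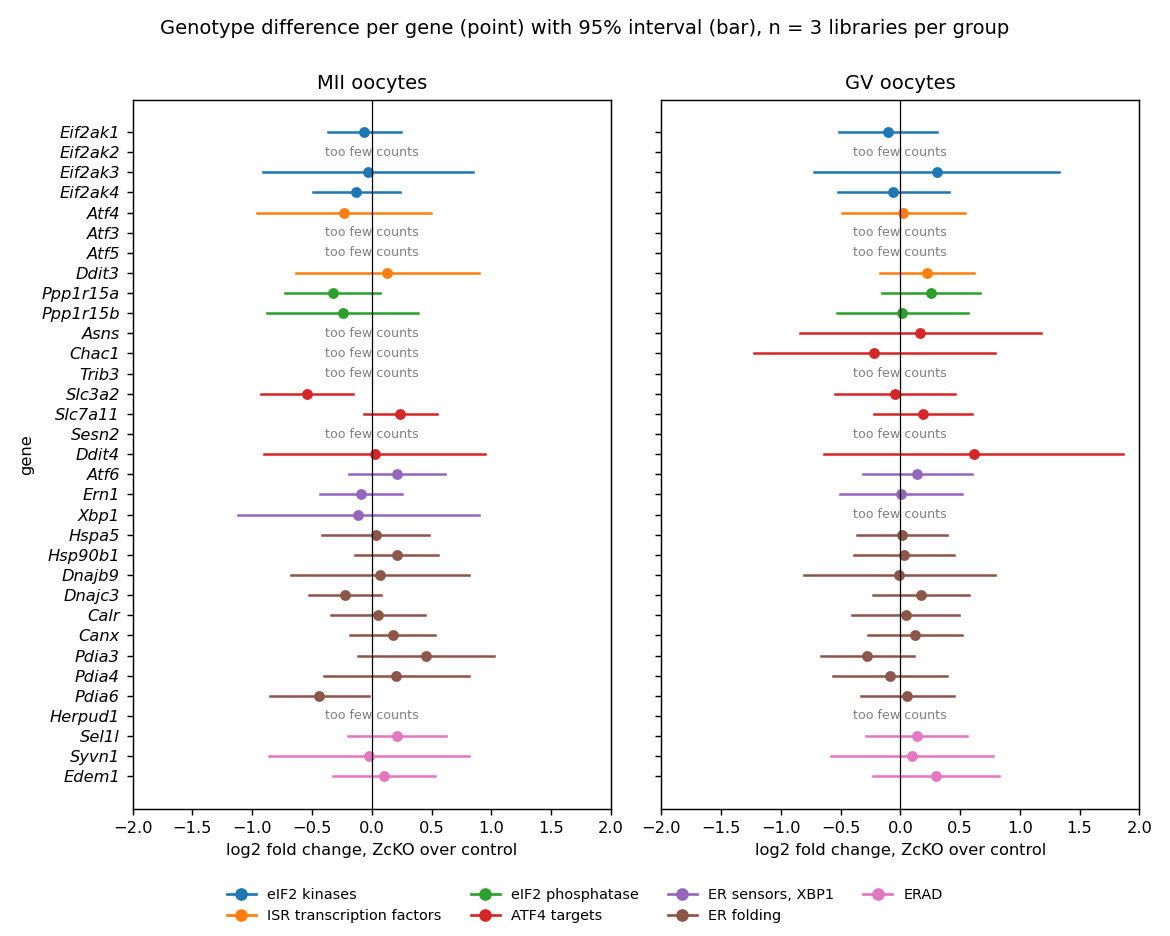
Log2 fold change of ZcKO over control for each member at MII (left) and GV (right), as points with 95% intervals, from 3 libraries per group. The points lie close to 0 at both stages, and the Slc3a2 and Pdia6 intervals at MII are the ones that do not reach 0, with adjusted p of 0.53 and 0.546.

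Among the transcription factors, Atf4, the hub of the response, had 41, 33.9 and 20.7 CPM in ZcKO MII libraries and 19.1, 49.8 and 41.8 CPM in control MII libraries. It had 203, 136 and 144 CPM in ZcKO GV libraries and 131, 191 and 136 CPM in control GV libraries. The genotypes overlapped at both stages, with log2 fold changes of -0.23 ± 0.33 (SE) at MII and 0.03 ± 0.24 at GV. Ddit3, which encodes the pro-apoptotic factor CHOP, had 7.66, 7.57 and 12.1 CPM in ZcKO MII libraries and 5.73, 9.36 and 9.5 CPM in control MII libraries. At GV it had 86.5, 81.3 and 80.3 CPM in ZcKO libraries and 78.8, 66.2 and 61.5 CPM in controls. Every ZcKO GV library thus lay above every control GV library, the log2 difference was 0.22 ± 0.18 (edgeR adjusted p = 1 when rounded, unadjusted p = 0.238), and 4.96% of all genes at GV were separated in this direction. Ddit3 was the single tested member without overlap at GV. Atf3, too low to test, lay the other way at GV, with 1.87, 1.38 and 2.33 CPM in ZcKO libraries and 3.38, 3.96 and 2.34 CPM in controls.

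Of the kinases, Eif2ak3 encodes PERK, the kinase of the ER membrane. It had 7.66, 7.87 and 6.42 CPM in ZcKO MII libraries, 7.91, 10.3 and 3.8 CPM in control MII, 7.78, 8.27 and 2.33 CPM in ZcKO GV and 4.73, 6.33 and 3.62 CPM in control GV. The 4 groups overlapped. The log2 differences between genotypes were -0.03 ± 0.40 at MII and 0.31 ± 0.47 at GV. Eif2ak1, the haem-regulated kinase HRI, differed by -0.06 at MII and -0.10 at GV, and Eif2ak4, the amino acid sensor GCN2, by -0.13 and -0.06. Eif2ak2, the double-stranded RNA sensor PKR, was too low to test: it had 18, 9 and 6 counts in ZcKO MII libraries against 1, 4 and 4 in control MII libraries, and 2, 0 and 0 in ZcKO GV against 4, 1 and 1 in control GV. Its MII counts did not overlap, and it is named here because of those values, seen beforehand. Other untested members separated the other way. They were Atf5 at MII, with 0, 0 and 0 counts in ZcKO against 1, 2 and 1 in control libraries, and Atf3 at GV. The share of all untested genes separated in this way was not counted. In ZcKO MII libraries the Eif2ak2 counts followed the order of the cumulus marker Tnfaip6, which had 507, 139 and 47 counts there against 114, 300 and 277 in control MII libraries. Between genotypes that order did not hold: control MII replicates 2 and 3 had more Tnfaip6 and fewer Eif2ak2 counts than ZcKO MII replicates 2 and 3. The marker Ptgs2, with 155, 80 and 27 counts in ZcKO MII libraries, kept that order. Ptx3 (113, 5 and 14) and Cyp11a1 (69, 17 and 23) did not. The part of cumulus RNA in the Eif2ak2 counts was not tested.

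Ppp1r15a encodes GADD34, the inducible subunit that brings the phosphatase to eIF2α. It had 105, 134 and 110.5 CPM in ZcKO MII libraries against 164, 132 and 130.1 CPM in control MII libraries, and 78.1, 72.7 and 98.6 CPM in ZcKO GV libraries against 79.8, 58.6 and 64.3 CPM in control GV libraries. Its log2 differences pointed down at MII, -0.33 ± 0.18 (edgeR adjusted p = 0.59), and up at GV, 0.25 ± 0.19 (adjusted p = 1 when rounded), and the groups overlapped at both stages. Ppp1r15b, the constitutive subunit CReP, differed by -0.24 at MII and 0.02 at GV.

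Slc3a2, the heavy chain shared by several amino acid transporters, had the smallest p among the members at MII. It had 263, 294 and 202 CPM in ZcKO MII libraries against 395, 313 and 361 CPM in controls, without overlap. The log2 fold change was -0.54 ± 0.18 with an unadjusted p of 0.0101 and an edgeR adjusted p of 0.53, so it did not pass. Its partner Slc7a11, which imports cystine, differed the other way. Its MII levels averaged 379 CPM in ZcKO and 314 CPM in controls, a log2 difference of 0.24 (adjusted p = 0.603), again without overlap. At GV, Slc3a2 had 145, 207 and 312 CPM in ZcKO libraries and 225, 195 and 237 CPM in controls, a log2 difference of -0.05. The ZcKO GV libraries spanned the whole control range. Asns, Chac1, Trib3 and Sesn2 were not tested at MII, and Ddit4 differed by 0.02.

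Among the folding enzymes, Pdia6, a protein disulfide isomerase, had 337, 336 and 235 CPM in ZcKO MII libraries against 468, 351 and 371 CPM in controls, without overlap. The log2 fold change was -0.44 ± 0.19 (unadjusted p = 0.0392, edgeR adjusted p = 0.546). At GV it had 329, 282 and 382 CPM in ZcKO libraries and 290.2, 294 and 336 CPM in controls, which overlapped (0.06 ± 0.18). Pdia3, the isomerase that works with calnexin and calreticulin, had 227, 170.4 and 159 CPM in ZcKO MII libraries against 77.4, 187 and 135 CPM in controls (0.46 ± 0.26, adjusted p = 0.594). At GV, Pdia3 had the smallest p of all members: it had 95.8, 117 and 109 CPM in ZcKO libraries against 122, 139 and 115 CPM in controls (-0.28 ± 0.18, unadjusted p = 0.146), and 1 ZcKO library lay above the lowest control. Scaled to spike-ins, its differences were 0.26 at MII and 0.17 at GV.

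Hspa5 encodes BiP, the main chaperone of the ER lumen and the usual readout of ER stress. It had 368, 296 and 237 CPM in ZcKO MII libraries, 201, 358 and 306 CPM in control MII, 309, 315 and 342 CPM in ZcKO GV and 300.3, 337 and 284 CPM in control GV. The genotypes overlapped at both stages, with log2 differences of 0.03 ± 0.20 at MII and 0.01 ± 0.17 at GV. The 95% interval ran between -0.41 and 0.48 at MII and between -0.36 and 0.39 at GV. Across the other 6 folding members besides Pdia3 and Pdia6, the differences lay between -0.22 (Dnajc3, an Hspa5 co-chaperone, whose MII values did not overlap) and 0.21 (Hsp90b1, GRP94) at MII, and between -0.09 (Pdia4) and 0.18 (Dnajc3) at GV.

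In the ER sensor arms the genotype differences lay between -0.11 (Xbp1, an ER stress transcription factor) and 0.21 (Atf6) at MII, and were 0.01 for Ern1 and 0.14 for Atf6 at GV, where Xbp1 was too low to test. The Xbp1 value at MII became -0.89 without ZcKO MII replicate 1, the library with the highest cumulus marker sum, and between 0.03 and 0.23 without control MII replicate 2, ZcKO MII replicate 2 or ZcKO MII replicate 3. Among the tested ERAD genes, which leave out Herpud1, they lay between -0.03 (Syvn1) and 0.21 (Sel1l, whose MII values did not overlap) at MII and between 0.10 (Syvn1) and 0.30 (Edem1) at GV. None of these passed the test.

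At MII, 5 of the 25 tested members had values without overlap, which were Slc7a11 and Sel1l above the controls and Slc3a2, Dnajc3 and Pdia6 below them. Over all genes at MII 15.8% were separated in this way, 8.19% higher and 7.57% lower. At GV the figure was 1 of 26 members, against 7.26% of all genes.

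The plot of individual libraries shows how the spread of single genes compares with these differences, and shows the much larger gap between the stages.

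**Figure D3:**
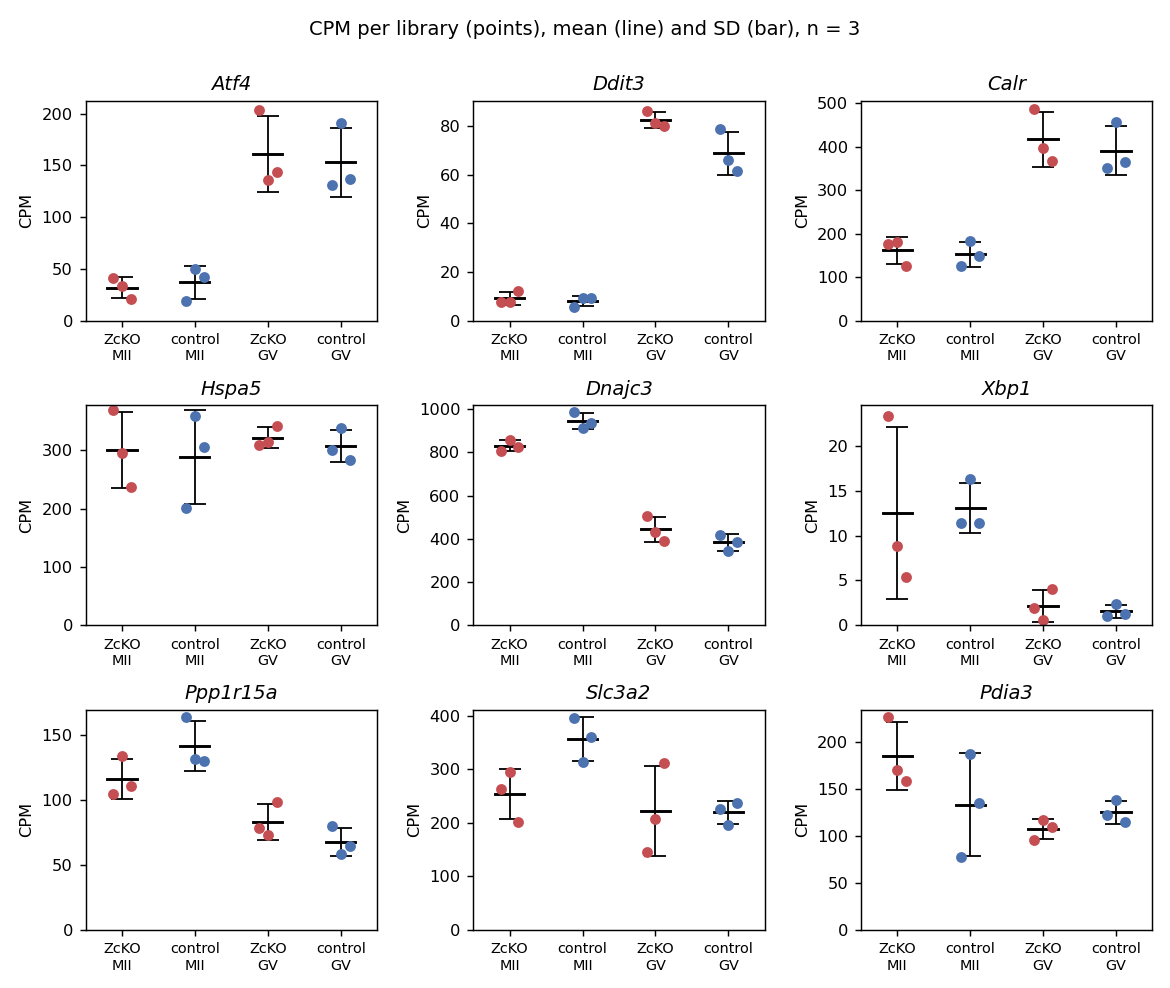
CPM of 9 members in each library (points), with the group mean (line) and SD (bar), n = 3 per group, in the order ZcKO MII, control MII, ZcKO GV, control GV. Atf4, Ddit3 and Calr have lower MII than GV points in both genotypes and Dnajc3 and Xbp1 higher ones as shares of gene counts (scaled to spike-ins, Dnajc3 is lower in ZcKO and not called in controls, at -0.29), while the Hspa5 points overlap across all groups.

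MII against GV asked how the same genes stood after meiotic maturation, when transcription is silent and stored mRNA is translated, tailed or degraded. Smart-seq2 primes on poly(A) tails, so a change in tail and a change in amount cannot be told apart. All values of this kind are relative to the other genes of the library unless spike-ins are named. With the ERCC spike-ins the median gene itself was lower at MII, with log2 fold changes of -2.37 in ZcKO and -1.72 in controls. On that scale 97.6% of all genes had negative values in ZcKO and 96.2% in controls.

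In ZcKO oocytes 11 of 28 tested members were called higher at MII and 4 lower, where 29.5% of 11607 genes were called higher and 34% lower. In control oocytes 12 were called higher and 5 lower, where 30.1% and 33.8% of genes were. With spike-in totals as library sizes, the split became 0 higher and 27 lower in ZcKO oocytes (0.801% and 88% of all genes) and 1 higher and 19 lower in control oocytes (0.56% and 70.1%). The median log2 fold change over members was 0.33 in ZcKO and 0.41 in controls, against -0.04 and 0.01 over all genes. Scaled to spike-ins, the member medians were -2.02 and -1.31. The MII and GV libraries did not overlap for 14 of the 28 members in ZcKO, 10 higher and 4 lower at MII, where 27.6% and 37.7% of all genes did so. In controls the number was 17, 12 higher and 5 lower, where 28.9% and 38.5% of all genes did so.

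Called higher in both genotypes were 9 members, Eif2ak1, Eif2ak4, Ppp1r15a, Slc7a11, Atf6, Xbp1, Dnajc3, Canx and Edem1, and on the spike-in scale all of them but Xbp1 had negative values. Called lower in both were 4, Atf4, Ddit3, Chac1 and Calr, with negative values on either scale. The share of all genes called alike in both genotypes was not counted, so these numbers are a description only. Hsp90b1 and Pdia3 passed in ZcKO and not in controls, and Slc3a2, Ern1, Pdia6 and Pdia4 in controls and not in ZcKO. The test of that difference itself, the interaction of stage and genotype, called 0 of the 28 members, where 0.00862% of genes (1 of 11607) were called. By DESeq2 the number was also 0, and 2 members had an unadjusted edgeR p under 0.05, against 5.24% of all genes.

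**Figure D4:**
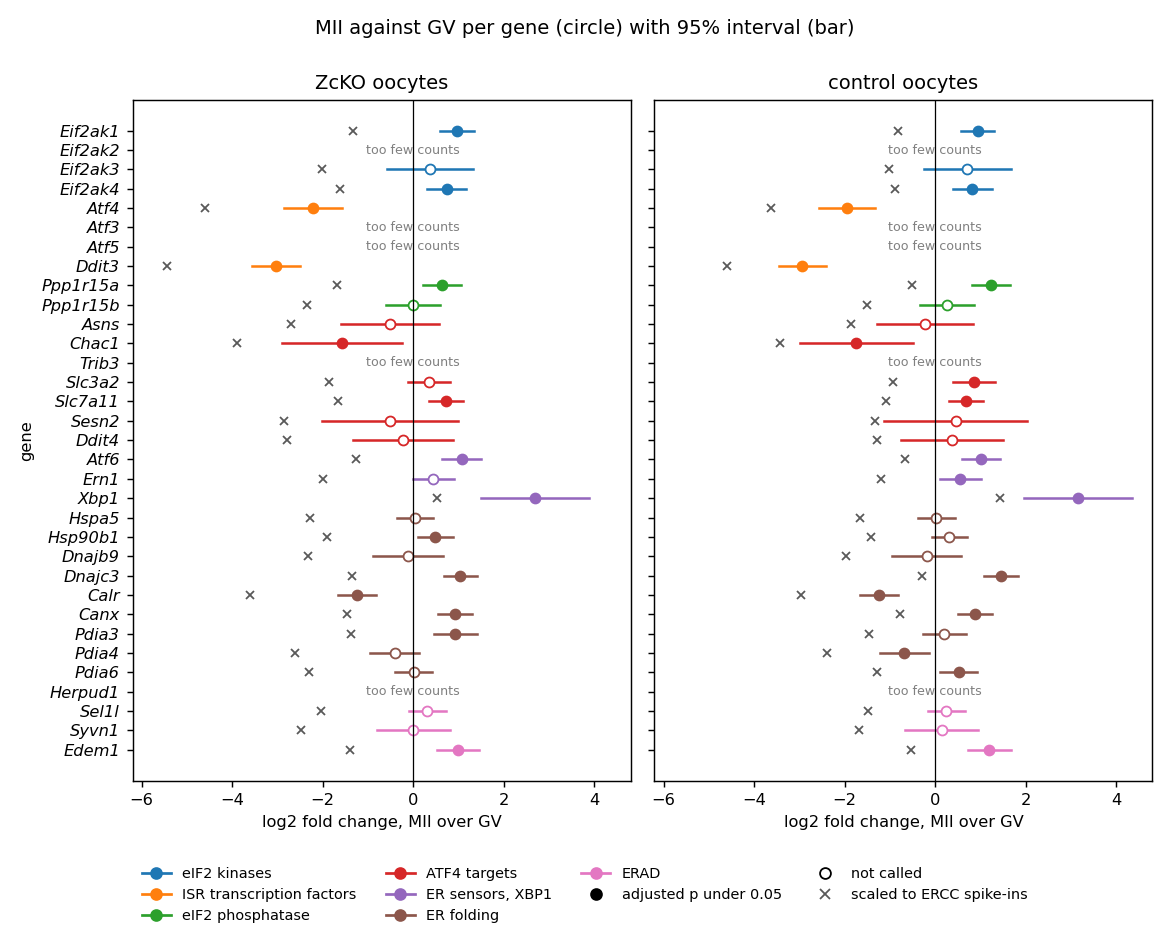
Log2 fold change of MII over GV for each member in ZcKO (left) and control (right) oocytes, circles with 95% intervals (filled where adjusted p is under 0.05), and crosses for the same value scaled to ERCC spike-ins. Circles to the right of 0 mark members higher relative to other genes, and the crosses of all these except Xbp1 lie to the left of 0.

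The lowest log2 fold changes among the members tested were those of the transcription factors. Ddit3 averaged 9.12 ± 2.6 CPM in ZcKO MII and 82.7 ± 3.31 CPM in ZcKO GV oocytes (SD, n = 3 each), 8.2-fold lower at MII (log2 fold change -3.03 ± 0.25 SE, edgeR adjusted p = 1.05e-08). In controls it averaged 8.2 ± 2.14 CPM at MII and 68.9 ± 8.93 CPM at GV, 7.63-fold lower (-2.93 ± 0.25, adjusted p = 1.37e-08). In the library values given above, no MII library came near a GV library. Scaled to spike-ins, the values were -5.45 in ZcKO and -4.61 in controls.

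Atf4 averaged 31.9 ± 10.3 CPM in ZcKO MII against 161 ± 36.8 CPM in ZcKO GV oocytes, a log2 fold change of -2.21 ± 0.30 (edgeR adjusted p = 5e-06). In controls it averaged 36.9 ± 15.9 CPM at MII and 153 ± 33 CPM at GV (-1.94 ± 0.30, adjusted p = 1.65e-05). The stages did not overlap in either genotype. The spike-in values were -4.59 in ZcKO and -3.62 in controls, below the median gene in both. Atf3, another stress-induced factor of the same family, was too low to test. It had 0 counts in all 3 ZcKO MII libraries, 2, 2 and 0 in control MII, 6, 5 and 7 in ZcKO GV and 10, 15 and 11 in control GV. With a floor of 3 counts over the group, its ZcKO MII level came out 5.31-fold lower than its ZcKO GV level, as a share of counts. That value takes the 18 ZcKO GV counts as exact, so it is not a full lower bound. Atf5 had at most 2 counts in any library.

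Of the kinases, Eif2ak1 and Eif2ak4 were called higher relative to other genes, and both had negative values on the spike-in scale. Eif2ak1 had log2 fold changes of 0.97 in ZcKO and 0.94 in controls, with spike-in values of -1.32 and -0.81. Eif2ak4 had 0.74 and 0.82, with spike-in values of -1.61 and -0.88. Eif2ak3 was not called in either genotype (0.37 ± 0.46 and 0.71 ± 0.46). Exons of Eif2ak1 overlap those of Aimp2 on the opposite strand, and the strand setting of the counting is not given, so reads of the pair cannot be told apart. The same holds for Eif2ak3 with Gm43292 and Ppp1r15b with Gm26616. Shorter exon overlaps were annotated for several other members, among them Hsp90b1, Pdia6 with Atp6v1c2 and Syvn1 with Mrpl49.

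Ppp1r15a averaged 117 ± 15.5 CPM in ZcKO MII and 83.2 ± 13.7 CPM in ZcKO GV oocytes (log2 fold change 0.63 ± 0.20, edgeR adjusted p = 0.00935), and was no longer called without ZcKO GV replicate 2 (adjusted p = 0.0552) or ZcKO MII replicate 2 (0.0511). In controls it averaged 142 ± 19.2 CPM at MII and 67.6 ± 11 CPM at GV (1.23 ± 0.20, adjusted p = 3.26e-05). Its spike-in values were -1.69 in ZcKO and -0.51 in controls. The interaction for Ppp1r15a was -0.59 ± 0.28 (unadjusted p = 0.0465, adjusted p = 0.875). It is one of the 2 members under 0.05 before adjustment. Ppp1r15b was not called, with -0.01 in ZcKO and 0.27 in controls.

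Of the 6 ATF4 targets tested, 1 was called higher and 1 lower in ZcKO oocytes, and 2 higher and 1 lower in controls, where 29.5% and 34% of all genes were called so in ZcKO and 30.1% and 33.8% in controls. The 2 members called higher in controls, Slc3a2 and Slc7a11, had negative spike-in values. Chac1, an enzyme that breaks down glutathione, had 1, 5 and 3 counts in ZcKO MII libraries against 12, 13 and 9 in ZcKO GV libraries, and 6, 2 and 3 in control MII against 14, 20 and 9 in control GV. The stages did not overlap, and the log2 fold changes were -1.58 ± 0.63 in ZcKO (edgeR adjusted p = 0.0357) and -1.74 ± 0.60 in controls (adjusted p = 0.016). The call in ZcKO was lost when ZcKO GV replicate 1 or 2 or ZcKO MII replicate 1 or 3 was left out (adjusted p between 0.0662 and 0.129), with DESeq2 (0.0523) and without the low-count filter (0.0576). In controls it was lost when control MII replicate 2 or 3 or control GV replicate 2 was left out (between 0.0633 and 0.0914).

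Slc7a11 was called higher in both genotypes (0.73 in ZcKO, 0.69 in controls), with -1.67 and -1.08 on the spike-in scale. Slc3a2 had 0.34 ± 0.22 in ZcKO (adjusted p = 0.181) and 0.85 ± 0.22 in controls (adjusted p = 0.00241), with -1.86 and -0.92 on the spike-in scale, and an interaction of -0.51 (adjusted p = 0.875). Without ZcKO GV replicate 3 it was called in ZcKO too (0.62, adjusted p = 0.0145). Asns, asparagine synthetase, had -0.51 and -0.22. Sesn2 and Ddit4, which restrain mTORC1, had -0.51 and -0.23 in ZcKO and 0.45 and 0.37 in controls, none called. Single libraries turned 2 of these values: Ddit4 in ZcKO was 0.71 without ZcKO GV replicate 1 and 0.02 without ZcKO MII replicate 1, and Sesn2 in controls was -0.38 without control MII replicate 2. Trib3, a pseudokinase that binds ATF4, had at most 5 counts in any library.

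All 3 genes of the ER sensor arms had positive values relative to other genes in both genotypes, and Atf6 and Ern1 had negative values on the spike-in scale. Xbp1, whose mRNA is spliced by IRE1 into the form that encodes the active factor, had 23.4, 8.78 and 5.35 CPM in ZcKO MII libraries against 1.87, 0.551 and 4 CPM in ZcKO GV libraries. In controls it had 11.4, 16.3 and 11.4 CPM at MII against 1.01, 2.37 and 1.28 CPM at GV. The stages did not overlap, and the log2 fold changes were 2.69 ± 0.57 in ZcKO (edgeR adjusted p = 4.53e-04) and 3.15 ± 0.57 in controls (adjusted p = 1.02e-04). The ZcKO value was 1.93 without ZcKO MII replicate 1 and 3.43 without ZcKO GV replicate 3, and was called in both cases (adjusted p = 0.00533 and 1.68e-04). Scaled to spike-ins they were 0.52 (adjusted p = 0.434) and 1.44 (adjusted p = 0.0358), which made Xbp1 the 1 member called higher there, in controls.

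The cumulus marker Tnfaip6 stood at 507, 139 and 47 counts in the same order of ZcKO MII libraries in which Xbp1 had 61, 29 and 15 counts. In control MII libraries Tnfaip6 had 114, 300 and 277 counts and Xbp1 42, 54 and 42. In both genotypes the library with the most Tnfaip6 also had the most Xbp1. Other cumulus markers did not all keep that order. In control MII libraries Ptgs2 had 48, 41 and 15 counts and Ptx3 had 31, 57 and 18. The sum of all 20 markers was 1535, 1306 and 1212 CPM there, highest where Tnfaip6 was lowest. Without Serpine2 it was 181, 298 and 210 CPM. The part of cumulus RNA in the Xbp1 result was not tested. Spliced and unspliced Xbp1 are not separated in gene counts.

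Atf6 had 126, 119 and 114 CPM in ZcKO MII libraries against 57.9, 71.1 and 59 CPM in ZcKO GV libraries, and 78, 130.1 and 97.2 CPM in control MII against 67, 41.2 and 58.1 CPM in control GV. The stages did not overlap. The log2 fold changes were 1.07 ± 0.21 (edgeR adjusted p = 1.77e-04) and 1.01 ± 0.21 (adjusted p = 2.96e-04), and -1.26 and -0.67 on the spike-in scale. Ern1 had 0.45 ± 0.22 in ZcKO (adjusted p = 0.0802) and 0.55 ± 0.22 in controls (adjusted p = 0.0319), with -2.0 and -1.20 on the spike-in scale. It passed in ZcKO when ZcKO GV replicate 1 was left out (adjusted p = 0.0258) or upper-quartile factors were used (0.0395). It failed in controls when control MII replicate 1 or control GV replicate 1 or 3 was left out (between 0.0836 and 0.126) and without the low-count filter (0.0819).

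Of the 9 folding members, 4 were called higher and 1 lower in ZcKO, and 3 higher and 2 lower in controls, where the shares over all genes were 29.5% and 34% in ZcKO and 30.1% and 33.8% in controls. All 9 had negative spike-in values in both genotypes, as did 97.6% of all genes in ZcKO and 96.2% in controls. Calr, the calcium-binding lectin chaperone calreticulin, had 177, 182 and 127 CPM in ZcKO MII libraries against 488, 396 and 367 CPM in ZcKO GV libraries. In controls it had 125, 184 and 149 CPM at MII against 352, 456 and 365 CPM at GV. The log2 fold change was -1.24 ± 0.20 in each genotype (edgeR adjusted p = 3.5e-05 and 3.47e-05), and the stages did not overlap. Its spike-in values were -3.61 and -2.96. Canx, calnexin, the membrane-bound counterpart of calreticulin, went the opposite way relative to other genes, with 0.93 in ZcKO and 0.89 in controls, and -1.46 and -0.78 on the spike-in scale.

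Dnajc3, which also restrains PERK, had 808, 857 and 827 CPM in ZcKO MII libraries against 507, 433 and 392 CPM in ZcKO GV libraries. In controls it had 986, 911 and 935 CPM at MII against 419, 343 and 387 CPM at GV. The log2 fold changes were 1.04 ± 0.18 (edgeR adjusted p = 4.88e-05) and 1.45 ± 0.18 (adjusted p = 1.29e-06), with -1.36 and -0.29 on the spike-in scale, where the control value was not called (adjusted p = 0.491). Hspa5 averaged 300.2 ± 65.9 CPM in ZcKO MII and 322 ± 17.5 CPM in ZcKO GV, and 288 ± 80.1 CPM in control MII and 307 ± 27.3 CPM in control GV. Its log2 fold changes of 0.04 ± 0.19 and 0.03 ± 0.19 left it level with the median gene, at -2.28 and -1.66 on the spike-in scale.

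Hsp90b1 had 0.48 ± 0.18 in ZcKO (adjusted p = 0.0295) and 0.31 ± 0.18 in controls (adjusted p = 0.142), with -1.92 and -1.41 on the spike-in scale. Its ZcKO call was lost when ZcKO MII replicate 1 or ZcKO GV replicate 2 or 3 was left out (adjusted p between 0.0903 and 0.129), without the low-count filter (0.149) and with only the 6 ZcKO libraries in the fit (0.0543). Its exons overlap those of 1810014B01Rik on the opposite strand.

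Of the disulfide isomerases, Pdia3 had 0.93 ± 0.23 in ZcKO (adjusted p = 0.00176) and 0.20 ± 0.23 in controls (adjusted p = 0.449), with -1.38 and -1.47 on the spike-in scale, and an interaction of 0.73 ± 0.32 (unadjusted p = 0.0359, adjusted p = 0.875). Scaled to spike-ins, that interaction was 0.09, where the median over all genes was -0.61 and 86.6% of genes were negative. Pdia4 had -0.41 in ZcKO and -0.69 ± 0.26 in controls (adjusted p = 0.0264). That call was lost when control MII replicate 1 or 3 or control GV replicate 1 or 3 was left out (between 0.0537 and 0.114). Pdia6 had 0.01 in ZcKO and 0.52 ± 0.20 in controls (adjusted p = 0.0252), with -2.31 and -1.28 on the spike-in scale. That call was lost when control MII replicate 1 or control GV replicate 1 or 2 was left out (between 0.0509 and 0.155) and without the low-count filter (0.133). Dnajb9, an Hspa5 co-chaperone, had -0.12 and -0.18 and was not called.

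The 7 genes with the ERSE were therefore spread over the range. In ZcKO oocytes Dnajc3, Canx and Hsp90b1 were called higher relative to other genes, Calr lower, and Hspa5, Pdia6 and Syvn1 were not called. In controls Dnajc3, Canx and Pdia6 were called higher, Calr lower, and Hspa5, Hsp90b1 and Syvn1 were not called. On the spike-in scale all 7 were below 0 in both genotypes, as were 97.6% of all genes in ZcKO and 96.2% in controls.

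Of the ERAD genes, Edem1, which directs misfolded glycoproteins to degradation, had 57.9, 42.7 and 50.3 CPM in ZcKO MII libraries against 29.5, 32.2 and 21.3 CPM in ZcKO GV libraries. In controls it had 46.9, 46.5 and 43.4 CPM at MII against 23.7, 22.7 and 19.6 CPM at GV. The stages did not overlap, and the log2 fold changes were 0.99 ± 0.23 (edgeR adjusted p = 9.19e-04) and 1.20 ± 0.23 (adjusted p = 1.60e-04), with -1.39 and -0.53 on the spike-in scale. Sel1l and Syvn1, partners in the ubiquitin ligase of the ER membrane, had 0.31 and 0.00 in ZcKO and 0.25 and 0.14 in controls, none called. Herpud1, which binds that ligase and is a classical ER stress target, had 8, 4 and 0 counts in ZcKO MII libraries, 3, 0 and 4 in control MII, 0, 0 and 2 in ZcKO GV and 1, 2 and 4 in control GV. These counts overlapped and were too low to test.

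Stored oocyte mRNAs can carry a cytoplasmic polyadenylation element near the 3′ end, which binds the protein CPEB. TTTTAT or TTTTAAT was searched on the transcript strand in the last 100 bases of 1 GENCODE vM21 transcript per gene, after the stage results were known. It was present in 7 of the 33 members, and in 20.1% of 10101 tested genes with a transcript. In ZcKO oocytes it was in 4 of the 11 members called higher and 0 of the 4 called lower, against 28.7% and 10.2% of all genes called so. In controls it was in 4 of 12 and 1 of 5, against 30.4% and 9.58%. These counts were not tested. The windows of the 7 members are shown to place the element among members called higher, lower or not at all, with the element in capitals (GRCm38). Edem1 had 3 elements, and its window does not hold them all.
Ppp1r15a chr7:45522922-45522951 (-): ataagaaataaagccTTTTAATttgtagtg
Ern1 chr11:106394701-106394730 (-): ttttacagTTTTATaattctgctcattgat
Dnajc3 chr14:118981642-118981671 (+): ggcaatatTTTTATgcccgtgtattttcac
Pdia3 chr2:121438658-121438687 (+): ttaaagtattgccctccTTTTATagctaaa
Pdia4 chr6:47796154-47796183 (-): ttttttttTTTTAATttaaactttaaaagt
Syvn1 chr19:6053654-6053683 (+): tgtataaaTTTTAATagcttaaattgtata
Edem1 chr6:108859304-108859333 (+): attaggatTTTTATgaataatTTTTATtaa

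A further 93 genes of the same pathways outside the set were listed as background. In the genotype comparisons 0 of 75 tested were called at MII (10 with an unadjusted p under 0.05, against 9.01% of all genes) and 0 of 74 at GV (1 with an unadjusted p under 0.05, against 2.2%). At MII against GV, 20 of 80 were called higher and 31 lower in ZcKO (29.5% and 34% of all genes), and 27 higher and 26 lower in controls (30.1% and 33.8%). On the spike-in scale 2 were higher and 72 lower in ZcKO (0.801% and 88%), and 1 higher and 60 lower in controls (0.56% and 70.1%). Nupr1, a small stress-induced nuclear protein, had the highest value in both genotypes. It had 957, 291 and 202 counts in ZcKO MII libraries against 0, 1 and 3 in ZcKO GV libraries, and 386, 646 and 243 in control MII against 3, 7 and 5 in control GV. As with Xbp1, its highest MII library in each genotype was the one with the most Tnfaip6. Other cumulus markers did not all keep the Tnfaip6 order, and the part of cumulus RNA was not tested. Slc38a2, an amino acid transporter, was next in ZcKO oocytes with 87, 13 and 6 counts at MII against 2, 0 and 1 at GV, again highest in the library with 507 Tnfaip6 counts. Vldlr, a lipoprotein receptor, had a log2 fold change of 2.51 in ZcKO. In controls the next were Selenos, an ERAD protein of the ER membrane (2.64), and Ppp1cb, a catalytic subunit of the phosphatase (1.86), with spike-in values of 0.88 and 0.07.

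The lowest of these genes encode enzymes and an ERAD channel protein. Phgdh, the first enzyme of serine synthesis, had 1, 2 and 1 counts in ZcKO MII libraries against 76, 86 and 96 in ZcKO GV libraries, a log2 fold change of -5.60 ± 0.42 (edgeR adjusted p = 3.33e-09). In controls it had 6, 4 and 6 counts at MII against 84, 90 and 88 at GV (-3.80 ± 0.34, adjusted p = 2.50e-08). Both declines held on the spike-in scale, at -7.85 and -5.49. Derl3, of the retrotranslocation channel, had -4.33 in ZcKO and -3.98 in controls, Pycr1, of proline synthesis, -3.64 in ZcKO, and Clpp, the mitochondrial protease, -3.19 in controls. The Pycr1 value rests on few reads, with 1, 0 and 0 counts in ZcKO MII libraries against 3, 7 and 10 in ZcKO GV libraries. Among the 28 members and the 80 other genes tested, the interaction called 0 and 0, with 2 and 6 at an unadjusted p under 0.05.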

How the data were processed

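Libraries of 5 oocytes were made by Smart-seq2 with ERCC spike-ins, per the labels' protocols. The authors deposited 1 table of raw counts (whole reads, not normalized) for 55291 genes and 92 spike-ins. Per the submitters' processing notes, the tools were fastp, HISAT2 and featureCounts with the mm10 build, and no versions are listed. No source used here gives the annotation, the strand setting or the handling of reads with several positions. Columns were matched to samples by name, with C read as control and T as ZcKO after Pik3c3 had been seen, and 6 columns that match no sample here were not used.

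Differences were tested with edgeR 4.0.16 (R 4.3.3) on the deposited counts: TMM scaling, filterByExpr, robust quasi-likelihood fit, Benjamini-Hochberg adjustment over all tested genes, threshold 0.05. Genotype comparisons used the 6 libraries of a stage. Stage changes and the interaction came from 1 fit of 12. The SE is the log2 fold change divided by the root of F. CPM values are scaled to gene totals without TMM factors. Exon lengths, 3′ ends and overlaps come from GENCODE vM21 (GRCm38), promoters from RefSeq. The spike-in scale used ERCC totals as library sizes. Other alternatives were DESeq2 1.42.0, upper-quartile factors, no filter on low counts, a replicate block, another set of libraries in the fit, and leaving out each library. Scripts were tested on simulated counts.

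All 33 members were named. Library values were given for Atf4, Ddit3, Eif2ak3, Ppp1r15a, Hspa5, Xbp1 and Herpud1, for any member called between genotypes or in the interaction, for the 3 smallest p of each genotype comparison, and for the 4 highest and 4 lowest log2 fold changes among members called in both stage comparisons. Of the other pathway genes, up to 3 highest and 3 lowest called in each stage comparison were named. The members and lists were chosen with earlier results of these data known. The replicates are described as biological, and no label ties a library to an animal, so p-values measure the spread between these libraries. The floor used for Atf3 covers counting error in its ZcKO MII libraries only.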

Additional observations from a re-analysis of the deposited data

How the results depend on the processing

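No member was called between genotypes or in the interaction under any alternative tried. For MII against GV, leaving out 1 library gave 9 to 12 members higher and 4 to 5 lower in ZcKO, and 10 to 12 higher and 4 to 6 lower in controls. With ERCC totals the counts moved to 0 higher and 27 lower in ZcKO and 1 higher and 19 lower in controls. A value whose sign turned and which was called on either scale was counted as turned. In ZcKO these were Eif2ak1 (-1.32), Eif2ak3 (-2.01), Eif2ak4 (-1.61), Ppp1r15a (-1.69), Slc3a2 (-1.86), Slc7a11 (-1.67), Atf6 (-1.26), Ern1 (-2.0), Hspa5 (-2.28), Hsp90b1 (-1.92), Dnajc3 (-1.36), Canx (-1.46), Pdia3 (-1.38), Pdia6 (-2.31), Sel1l (-2.04), Syvn1 (-2.48) and Edem1 (-1.39). In controls they were Eif2ak1 (-0.81), Eif2ak4 (-0.88), Ppp1r15a (-0.51), Ppp1r15b (-1.50), Slc3a2 (-0.92), Slc7a11 (-1.08), Ddit4 (-1.29), Atf6 (-0.67), Ern1 (-1.20), Hspa5 (-1.66), Hsp90b1 (-1.41), Dnajc3 (-0.29), Canx (-0.78), Pdia3 (-1.47), Pdia6 (-1.28), Sel1l (-1.49), Syvn1 (-1.69) and Edem1 (-0.53). TMM centres on the median gene and spike-ins do not, which is the construction of the 2 scales. The share of gene counts over spike-in counts was 1.51 to 2.21 in ZcKO MII, 1.85 to 2.42 in control MII, 6.29 to 13.1 in ZcKO GV and 4.35 to 8.69 in control GV libraries. With DESeq2, Chac1 in ZcKO was not called (adjusted p = 0.0523). Libraries with the same replicate number did not deviate together (r between -0.24 and 0.22, 1 of 12 pairs over 0.1, 1 of 12 libraries nearest its own number), and with the replicate block 11 members were higher and 4 lower in ZcKO, 12 and 5 in controls, and 0 between genotypes. At these depths 7 members at GV and 8 at MII could not be tested.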
